A study of Homo sapiens with 12 samples.

Results

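Aminoacyl-tRNA synthetases were examined by polyA RNA-seq in C4.2B, an established castration-resistant human prostate cancer line. The 36 genes were chosen by name: 20 cytosolic enzymes, and 16 mitochondrial enzymes whose symbols end in 2. All 36 were found among the 23228 genes counted, and all 36 passed the filter on low counts. The study asked how inhibition of PI3K, a growth-factor signalling kinase, and of EZH2, the enzyme that methylates histone H3 at lysine 27, act alone and together.

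There were 4 arms of 3 libraries, named A, B and C. The DMSO arm received vehicle. The GDC arm received GDC-0941 at 0.5 µM, which inhibits all class I PI3K isoforms, the GSK arm received the EZH2 inhibitor GSK126 at 5 µM, and the COMBO arm received both at these doses. All arms were harvested 24 hours after the last addition, in medium with 10% charcoal-stripped serum. Cells of the GSK and COMBO arms had been kept in GSK126 for 6 days beforehand, and the other arms in vehicle, so the 2 inhibitors differ in length of exposure as well as in target. The methods of the study describe plates seeded in triplicate after the pretreatment, and nothing there or in the labels says that replicates came from independent cultures. All libraries are of a single cell line, so the p-values measure only the spread between these libraries.

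Each synthetase joins 1 amino acid to its tRNAs, the step that fixes which amino acid a codon calls for. Cytosol and mitochondria translate separately, and most amino acids therefore have a cytosolic enzyme and a mitochondrial enzyme, both encoded in the nucleus. GARS and KARS each encode both forms from the same gene, EPRS carries glutamyl and prolyl activities in a single protein, and FARSA and FARSB are the subunits of cytosolic phenylalanyl-tRNA synthetase. Several cytosolic enzymes sit in the multisynthetase complex, which is held together by the scaffold proteins AIMP1, AIMP2 and EEF1E1. Genes of many cytosolic synthetases are known targets of ATF4, the transcription factor that is translated when uncharged tRNA activates the kinase GCN2 (EIF2AK4).

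The libraries held between 8785218 and 44437751 counts in genes, and single synthetases had 129 to 32284 counts in a library, so all were far above the 3 counts that a count of 0 allows (0.0675 to 0.341 CPM, counts scaled to library size). Luminal prostate markers were present in DMSO, with KLK3 at 596 CPM and FOLH1 at 1178 CPM, and 6 of 7 were higher in COMBO (KLK3 at 1842 CPM) and 1, HOXB13, lower. Over all genes 43.3% were higher and 39.2% lower in COMBO. With GDC alone 6 of the 7 markers were higher, against 20.0% of all genes. With GSK alone 5 were higher and 1 lower, against 40.0% and 35.7% of all genes. Reads in genes made up 75.4% to 76.3% of reads in DMSO libraries and 66.3% to 68.5% in COMBO libraries. Of 7 stromal and leukocyte markers, only COL1A1 and CD68 passed the filter. COL1A1 rose from 10.5 ± 0.707 CPM in DMSO to 35.8 ± 9.33 CPM in COMBO, and CD68 from 5.31 ± 0.419 to 8.07 ± 1.20 CPM (SD, n = 3). With GSK alone COL1A1 stood at 30.3 ± 6.23 CPM and CD68 at 8.32 ± 1.54 CPM, and with GDC alone at 11.9 ± 1.59 and 5.85 ± 0.380 CPM. Neither gene passed the threshold in COMBO against GSK. COL1A2, DCN, PTPRC, CD3E and PECAM1 were at 0 in all DMSO libraries and reached at most 0.329 CPM elsewhere. The part of these markers and of the share of reads in genes in the results was not tested. Transcripts of EZH2 itself stood at 105, 107 and 102 CPM in DMSO and at 34.6, 35.8 and 34.3 CPM in COMBO.

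In DMSO the cytosolic genes were the more abundant class. Their level per kilobase of transcript had a median of 115 CPM per kb (range 35.5 to 265), against 20.4 CPM per kb (8.38 to 104) for the mitochondrial genes. TARS, threonyl-tRNA synthetase, was highest at 265 CPM per kb, and KARS, GARS, EPRS and NARS followed at 187, 167, 160 and 146 CPM per kb. IARS2, mitochondrial isoleucyl-tRNA synthetase, was the one mitochondrial gene in the upper part of the order at 104 CPM per kb. PARS2 and FARS2, the mitochondrial prolyl and phenylalanyl enzymes, were lowest at 8.38 and 8.99 CPM per kb. Neighbours such as MARS and IARS2 (108 and 104 CPM per kb) stood close, and no order is drawn between them. The 20 cytosolic genes together took 0.631% ± 0.00459 of gene counts in DMSO (SD, n = 3), which became 0.552% ± 0.00719 with GDC, 0.439% ± 0.00609 with GSK and 0.394% ± 0.00389 with both. The 16 mitochondrial genes took 0.123% ± 0.000565, 0.127% ± 0.00106, 0.0994% ± 0.00215 and 0.0902% ± 0.000431. The cytosolic share was thus lower in each inhibitor arm, whereas the mitochondrial share was lower in GSK and COMBO and slightly above DMSO in GDC. IARS2, the most abundant mitochondrial gene, went from 367 CPM in DMSO to 417 CPM with GDC, where 8 of 16 mitochondrial genes had log2 fold changes below 0. The mitochondrial share without IARS2 was not computed. In these bulk libraries, less RNA per cell and fewer cells that express a gene cannot be told apart.

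The upstream sequences of the genes are shown because the 2 classes differed in their content of a short element. The letters TGATGNAA, the core of the C/EBP-ATF element through which ATF4 and its C/EBP partners bind DNA, were searched on both strands from 250 bases before to 50 bases after the RefSeq start site (build GRCh38.p14). They occurred in 6 of 16 cytosolic windows (37.5%), in 1 of 14 mitochondrial windows (7.14%) and in 3.67% of 27305 windows of all genes. With TGATGCAA, the same 6 cytosolic windows matched (37.5%), 0 of 14 mitochondrial ones did, and the share over all windows was 0.923%. The 30 bases around each match are printed 5′ to 3′ on the strand of the gene, with the match in capitals:
AARS (chr16:70289675-70289704, minus strand): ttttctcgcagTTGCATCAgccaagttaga
CARS (chr11:3057407-3057436, minus strand): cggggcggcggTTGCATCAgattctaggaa
IARS (chr9:92293692-92293721, minus strand): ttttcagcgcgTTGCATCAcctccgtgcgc
MARS (chr12:57488053-57488082, plus strand): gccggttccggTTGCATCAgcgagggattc
NARS (chr18:57621804-57621833, minus strand): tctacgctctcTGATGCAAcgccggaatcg
TARS (chr5:33440956-33440985, plus strand): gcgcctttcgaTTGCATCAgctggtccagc
YARS2 (chr12:32756076-32756105, minus strand): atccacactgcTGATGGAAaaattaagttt
In 5 of the 6 cytosolic genes the match began within 20 bases of the start site, at position -13 in IARS, -4 in MARS, -2 in CARS, 3 in TARS and 15 in NARS, counted from 1 at the first transcribed base with no position 0. In AARS it began at -187 and in YARS2 at -197. These letters are a description of the sequence, and nothing about the binding of a factor was measured.

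The E-box CACGTG, the letters recognised by MYC with MAX, was searched in the same windows. The counts are small and the cytosolic share is near that of all windows, so no difference between the classes is read from them. The E-box was found in 3 of 14 mitochondrial windows (21.4%), in 1 of 16 cytosolic windows (6.25%, IARS) and in 7.43% of all windows. In none of the synthetase windows does it overlap the element above. The 30 bases around it are printed in the same way, with the E-box in capitals:
IARS (chr9:92293866-92293895, minus strand): tggttcgttttcCACGTGgaggcgcaaaac
CARS2 (chr13:110706501-110706530, minus strand): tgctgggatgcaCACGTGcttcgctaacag
EARS2 (chr16:23557348-23557377, minus strand): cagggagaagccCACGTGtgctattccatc
MARS2 (chr2:197705346-197705375, plus strand): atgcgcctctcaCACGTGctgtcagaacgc
The 250 bases before the start of MARS2, the synthetase with the largest change in COMBO, are given in full with the E-box in capitals (chr2:197705119-197705368, plus strand):
MARS2: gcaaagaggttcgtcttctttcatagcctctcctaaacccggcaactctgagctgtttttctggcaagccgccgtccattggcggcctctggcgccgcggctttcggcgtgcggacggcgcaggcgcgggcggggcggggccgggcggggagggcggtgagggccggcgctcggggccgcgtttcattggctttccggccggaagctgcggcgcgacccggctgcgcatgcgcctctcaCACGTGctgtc
No window was available here for DARS, LARS, VARS, YARS, AARS2 and VARS2.

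All 20 cytosolic synthetases fell under the combination, and so did 13 of 16 mitochondrial ones. Of all 14189 genes tested, 39.2% were lower in COMBO than in DMSO. The median log2 fold change was -0.83 for the cytosolic class and -0.57 for the mitochondrial class, against 0.054 over all genes. GSK alone gave 20 of 20 lower cytosolic genes (median -0.61) and 10 of 16 lower mitochondrial genes (median -0.41), with 35.7% of all genes lower and a median of 0.058. GDC alone gave 15 of 20 lower cytosolic genes (median -0.28) and 4 of 16 lower mitochondrial genes (median -0.0042), with 20.0% of all genes lower and a median of 0.016. A synthetase was higher in 2 cases, IARS2 under GDC and HARS2 under GSK, where 20.0% and 40.0% of all genes were higher, and 0 of 36 were higher in COMBO (all 36 values were below 0, and DESeq2 also gave 0), where 43.3% of all genes were. Changed genes had an adjusted p under 0.05 in the quasi-likelihood test of edgeR, and the 3 comparisons share the DMSO libraries. A change of the same size is less easily called in a gene with lower counts, and the mitochondrial genes are the less abundant class. Scaling by library totals moved the median of all genes up by 0.15 for GSK and 0.21 for COMBO, and under it RARS2, HARS2 and SARS2 were called higher in COMBO. The COMBO call of PARS2 (adjusted p = 0.0334, edgeR) was lost in 5 of 19 alternative analyses, and library totals turned its value to 0.02.

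**Figure D1:**
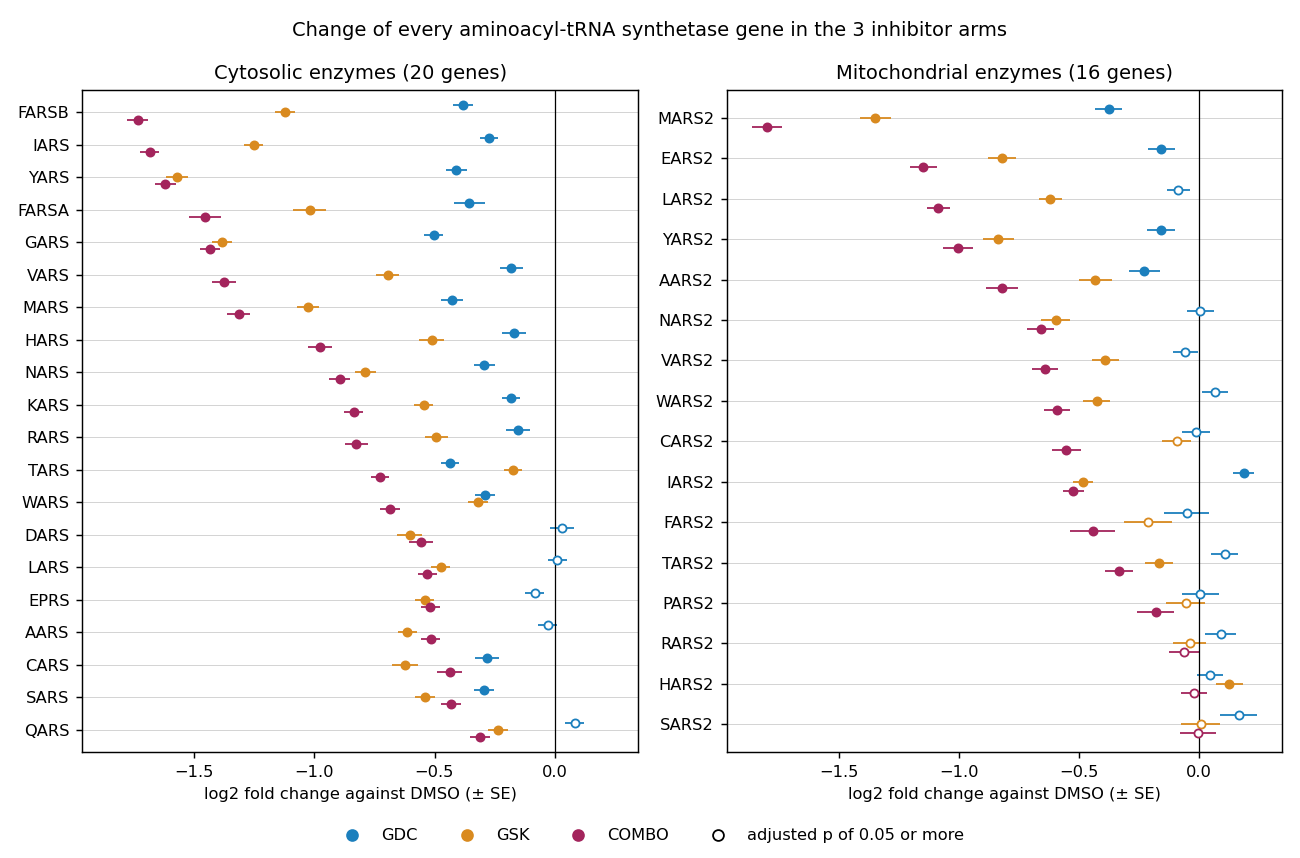
Log2 fold change against DMSO (horizontal axis) with its standard error for each of the 20 cytosolic and 16 mitochondrial synthetase genes, ordered by the change in COMBO; blue is GDC, orange GSK and purple COMBO, n = 3 libraries per arm, and open circles mark an adjusted p of 0.05 or more. All cytosolic genes lie left of 0 in GSK and COMBO, and RARS2, HARS2 and SARS2 lie within 0.07 of 0 in COMBO, or above 0 when libraries are scaled by their totals.

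The cytosolic genes that fell most in COMBO were FARSB, IARS, YARS and FARSA. FARSB, the beta subunit of the phenylalanyl enzyme, stood at 242, 240 and 238 CPM in DMSO, 185, 187 and 180 CPM with GDC, 109, 110 and 111 CPM with GSK and 73.0, 73.1 and 69.9 CPM with COMBO. The 4 arms did not overlap, and each inhibitor arm was below DMSO. In COMBO the level was 3.33-fold lower (log2 fold change -1.73 ± 0.0431 SE, adjusted p = 4.28e-18, edgeR). Its partner subunit FARSA stood at 165, 195 and 181 CPM in DMSO, 139, 148 and 137 CPM with GDC, 99.5, 87.9 and 81.3 CPM with GSK and 67.0, 64.1 and 67.3 CPM with COMBO. The arms of FARSA were also fully separated, and its COMBO change was -1.45 ± 0.0668 SE on the log2 scale (adjusted p = 5.15e-14, edgeR).

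IARS, the isoleucyl enzyme of the multisynthetase complex, had 659, 634 and 641 CPM in DMSO, 547, 524 and 529 CPM with GDC, 271, 270 and 270 CPM with GSK and 205, 193 and 204 CPM with COMBO. It was 3.21-fold lower in COMBO (log2 fold change -1.68 ± 0.0399 SE, adjusted p = 2.21e-18, edgeR). In YARS, the tyrosyl enzyme, most of the fall was already present with the EZH2 inhibitor alone. YARS had 306, 313 and 303 CPM in DMSO, 226, 235 and 233 CPM with GDC, 108, 101 and 102 CPM with GSK and 96.9, 99.5 and 104 CPM with COMBO. The GSK and COMBO libraries overlapped, and the difference between these arms missed the threshold (log2 difference -0.05 ± 0.0468 SE, adjusted p = 0.404, edgeR). GARS, the glycyl enzyme of both compartments, had the same layout, with 399, 415 and 408 CPM in DMSO, 292, 286 and 285 CPM with GDC, 161, 154 and 153 CPM with GSK and 148, 150 and 154 CPM with COMBO. GARS was also the member with the largest fall under GDC (log2 fold change -0.50 ± 0.0398 SE, adjusted p = 1.57e-08, edgeR).

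The smallest cytosolic change in COMBO was that of QARS, the glutaminyl enzyme (log2 fold change -0.31 ± 0.0415 SE, adjusted p = 8.43e-07, edgeR). The 5 cytosolic genes that did not pass the test under GDC were AARS, DARS, EPRS, LARS and QARS, with log2 fold changes from -0.08 in EPRS to 0.08 in QARS. EPRS was called lower in 9 of 19 alternative analyses, DESeq2 among them, which makes 5 of 8 for the complex in the counts below. All of them except AARS belong to the multisynthetase complex. In the complex, 4 of 8 genes were lower under GDC (median -0.12), 8 of 8 under GSK (-0.54) and 8 of 8 in COMBO (-0.69). Outside it, 11 of 12 were lower under GDC (median -0.29), 12 of 12 under GSK (-0.66) and 12 of 12 in COMBO (-0.93). Over all genes 20.0%, 35.7% and 39.2% were lower. The difference between complex members and the other cytosolic genes was not tested, because genes are not replicates. TARS had a larger fall under GDC (log2 fold change -0.43 ± 0.0380 SE, adjusted p = 5.18e-08, edgeR) than under GSK (-0.17 ± 0.0379 SE, adjusted p = 0.000365, edgeR). The TARS values were 728, 711 and 685 CPM in DMSO, 532, 525 and 515 CPM with GDC, 626, 620 and 636 CPM with GSK and 423, 442 and 417 CPM with COMBO. The call under GSK was lost when libraries were scaled by their totals (log2 fold change -0.02).

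Synthetases also fall into structural classes I and II, which have unrelated catalytic folds. In COMBO, 9 of 9 cytosolic class I genes (median -0.83) and 10 of 10 cytosolic class II genes (median -0.87) were lower, EPRS being left out because it holds an enzyme of each class. Among mitochondrial genes, 8 of 9 of class I (median -0.64) and 5 of 7 of class II (median -0.34) were lower, against 39.2% of all genes.

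MARS2, the mitochondrial methionyl enzyme whose upstream bases are printed above, showed the largest fall in COMBO among all 36 genes. Its values were 61.7, 58.0 and 60.9 CPM in DMSO, 46.3, 47.5 and 45.1 CPM with GDC, 24.9, 22.7 and 23.5 CPM with GSK and 18.1, 17.6 and 15.9 CPM with COMBO. No 2 arms overlapped, and COMBO was 3.48-fold below DMSO (log2 fold change -1.80 ± 0.0615 SE, adjusted p = 5.01e-16, edgeR). EARS2, which charges mitochondrial tRNAs with glutamate, had 142, 148 and 139 CPM in DMSO, 130, 130 and 124 CPM with GDC, 88.8, 77.6 and 77.3 CPM with GSK and 66.5, 60.3 and 67.2 CPM with COMBO. EARS2 fell by 1.15 on the log2 scale in COMBO (adjusted p = 2.04e-13, edgeR). LARS2, the mitochondrial leucyl enzyme, had 178, 172 and 175 CPM in DMSO, 168, 158 and 169 CPM with GDC, 117, 113 and 113 CPM with GSK and 77.9, 83.4 and 86.5 CPM with COMBO. LARS2 fell by 1.08 (adjusted p = 3.28e-14, edgeR), and its change under GDC alone did not pass the test (-0.09 ± 0.0471 SE, adjusted p = 0.153, edgeR), though it was called lower in 7 of 19 alternative analyses, DESeq2 among them. YARS2, the mitochondrial tyrosyl enzyme, had 44, 42.9 and 46 CPM in DMSO, 38.6, 41.3 and 39.4 CPM with GDC, 24.2, 26.5 and 23.9 CPM with GSK and 21.4, 22.7 and 22.3 CPM with COMBO, with COMBO at 0.499 of the DMSO level (adjusted p = 5.28e-12, edgeR).

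RARS2 and SARS2, the mitochondrial arginyl and seryl enzymes, were called in no comparison with DMSO. RARS2 had 29.7, 27.3 and 27.6 CPM in DMSO and 26.6, 28.3 and 25.2 CPM in COMBO (log2 fold change -0.06 ± 0.0637 SE, adjusted p = 0.374, edgeR). SARS2 had 20.6, 26.0 and 25.1 CPM in DMSO and 25.1, 23.5 and 24.3 CPM in COMBO (-0.01 ± 0.0756 SE, adjusted p = 0.949, edgeR). In both genes the DMSO and COMBO libraries overlapped. IARS2 was the synthetase that rose under GDC, from 380, 362 and 358 CPM in DMSO to 411, 423 and 416 CPM (log2 fold change 0.18 ± 0.0422 SE, adjusted p = 0.00168, edgeR), and this call was lost without library C of DMSO and without the filter on low counts (adjusted p up to 0.0636). In GSK and COMBO, IARS2 was lower, with 259, 263 and 264 CPM and with 248, 269 and 247 CPM.

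Enzymes for the same amino acid were compared within libraries, which removes the scaling between libraries. For 13 amino acids with 1 gene in each class, the ratio of the cytosolic to the mitochondrial gene was lower than in DMSO for 11 under GDC, 10 under GSK and 9 in COMBO. The median change of the log2 ratio was -0.26, -0.29 and -0.40, respectively. The 3 arms share the DMSO libraries. Each ratio had a two-sided exact permutation test, 39 in all, in which 3 libraries against 3 cannot go below p = 0.1 (0.111 after Benjamini-Hochberg adjustment), so none can pass 0.05. The libraries of the arm and of DMSO did not overlap in 11 of 13 ratios under GDC, 12 of 13 under GSK and 12 of 13 in COMBO. How often ratios of other gene pairs are lower or separate in this way was not counted. Nothing particular to the synthetases is therefore read from these counts.

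Isoleucine and histidine had the widest split in COMBO. The log2 ratio of IARS to IARS2 was 0.81 ± 0.0229 in DMSO and -0.35 ± 0.118 in COMBO (SD, n = 3), so the cytosolic transcript went from the more abundant to the less abundant of the pair. HARS, the histidyl enzyme, had 117, 128 and 125 CPM in DMSO, 112, 110 and 108 CPM with GDC, 84.0, 89.9 and 86.2 CPM with GSK and 60.1, 63.0 and 66.0 CPM with COMBO. HARS2 had 67.0, 64.5 and 64.9 CPM in DMSO, 72.2, 68.5 and 62.1 CPM with GDC, 71.5, 73.3 and 68.9 CPM with GSK and 65.1, 63.4 and 64.5 CPM with COMBO. The libraries of HARS were fully separated between DMSO and COMBO, while those of HARS2 overlapped. HARS fell by 0.98 on the log2 scale (adjusted p = 4.07e-13, edgeR), and HARS2 had a value of -0.02 ± 0.0540 SE (adjusted p = 0.710, edgeR), or 0.19 when libraries were scaled by their totals. The call of HARS2 as higher under GSK (0.13 ± 0.0556 SE, adjusted p = 0.0469, edgeR) was lost in 15 of 19 alternative analyses.

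HARS and HARS2 are neighbours that are transcribed away from each other. Their RefSeq start sites on chromosome 5 lie at 140691370 (minus strand) and 140691455 (plus strand), with 84 bases between them, and the annotated genes overlap (HARS chr5:140673035-140691537, HARS2 chr5:140691430-140699305, GENCODE 44). The use of strand in the counting was not stated, so reads from the shared stretch cannot be assigned. Tryptophan had the narrowest split in COMBO. WARS fell by 0.68 (adjusted p = 4.42e-12, edgeR) and WARS2 by 0.59 (adjusted p = 2.62e-09, edgeR), and the log2 ratio was 1.74 ± 0.0398 in DMSO and 1.65 ± 0.0803 in COMBO, with overlapping libraries. WARS had 175, 180 and 181 CPM in DMSO and 109, 112 and 113 CPM in COMBO. WARS2 had 54.1, 52.7 and 53.8 CPM in DMSO and 34.3, 37.7 and 34.1 CPM in COMBO. The ratio went the other way in COMBO for alanine, cysteine, leucine and methionine, with the largest rise for leucine (LARS to LARS2, 0.77 ± 0.0213 in DMSO and 1.32 ± 0.0808 in COMBO).

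**Figure D2:**
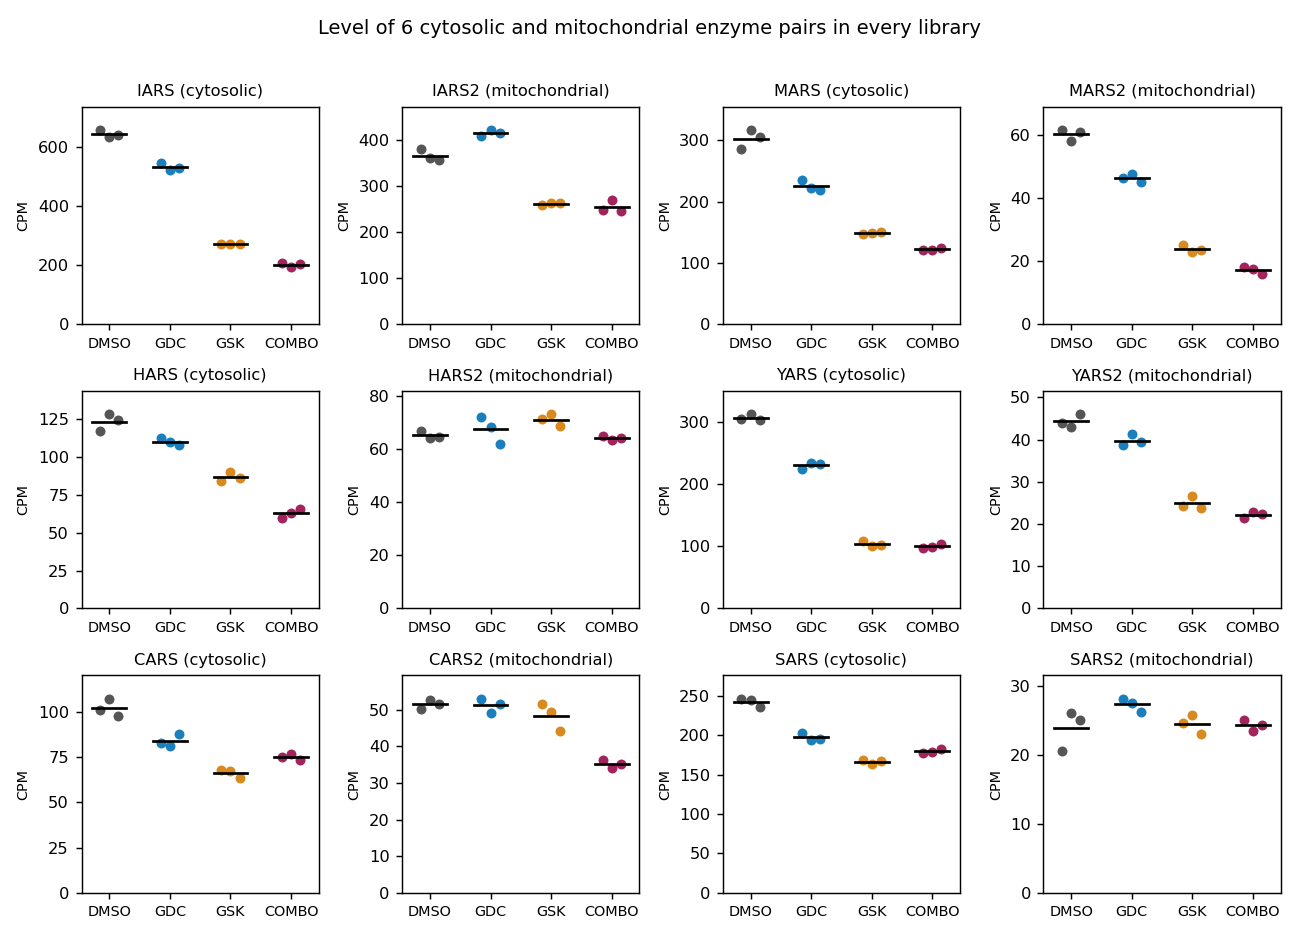
CPM (vertical axes, from 0) in each of the 12 libraries for 6 cytosolic genes and their mitochondrial counterparts; each point is 1 library and the bar is the mean of 3. IARS falls below IARS2 in COMBO, HARS falls while HARS2 overlaps DMSO, and both MARS and MARS2 step down from DMSO to GDC, GSK and COMBO.

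**Figure D3:**
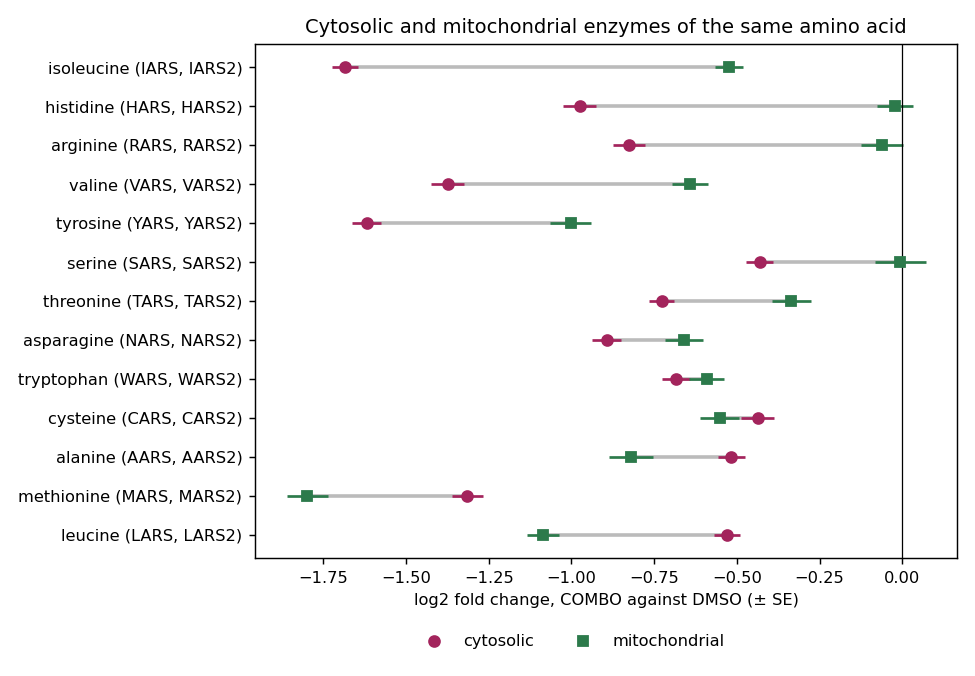
Log2 fold change of COMBO against DMSO (horizontal axis, with its standard error) for the cytosolic gene (purple circles) and the mitochondrial gene (green squares) of 13 amino acids, n = 3 libraries per arm. The grey bar between the symbols is widest for isoleucine (-1.68 against -0.52), and the mitochondrial gene lies further left for cysteine, alanine, methionine and leucine.

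Adding the EZH2 inhibitor to the PI3K inhibitor lowered 20 of 20 cytosolic genes (median -0.63 for COMBO against GDC) and 14 of 16 mitochondrial genes (median -0.59), where 38.0% of all genes were lower, 37.9% were higher and the median of all genes was 0.018. No synthetase was higher in that comparison (0 of 36, also with DESeq2), and all 36 values were below 0. The calls of PARS2 and RARS2 as lower were lost in 16 and 18 of 19 alternative analyses. Scaling by library totals moved the median of all genes up by 0.17 here and turned the values of CARS, SARS, RARS2, SARS2 and HARS2 above 0 (up to 0.10 in HARS2, none called). The calls of CARS and SARS as lower were lost in 4 and 5 of 19 alternative analyses. Adding the PI3K inhibitor to the EZH2 inhibitor lowered 10 of 20 cytosolic genes (median -0.20 for COMBO against GSK) and 9 of 16 mitochondrial genes (median -0.17), where 26.9% of all genes were lower and the median was -0.014. Of the mitochondrial calls, those of HARS2, TARS2 and WARS2 were lost in 16, 14 and 15 of 19 alternative analyses. VARS, the valyl enzyme, changed most in COMBO against GSK. VARS had 357, 416 and 397 CPM in DMSO, 346, 347 and 342 CPM with GDC, 245, 242 and 236 CPM with GSK and 148, 152 and 152 CPM with COMBO, so that the second agent took the level from the GSK values to the lowest of all arms (log2 difference -0.68 ± 0.0494 SE, adjusted p = 1.09e-09, edgeR). CARS and SARS, the cysteinyl and seryl enzymes, went the other way and were higher in COMBO than in GSK, where 19.0% of all genes were higher. CARS had 101, 107 and 98 CPM in DMSO, 83.0, 80.9 and 87.5 CPM with GDC, 67.6, 67.5 and 63.7 CPM with GSK and 75.3, 76.9 and 73.3 CPM with COMBO (log2 difference to GSK 0.18 ± 0.0540 SE, adjusted p = 0.00863, edgeR). SARS had 246, 245 and 236 CPM in DMSO, 203, 194 and 195 CPM with GDC, 169, 164 and 168 CPM with GSK and 177, 179 and 183 CPM with COMBO (0.11 ± 0.0421 SE, adjusted p = 0.0410, edgeR). Both genes had their lowest level with the EZH2 inhibitor alone. The call of CARS was lost without library C of GSK (adjusted p = 0.056), and that of SARS without library B or C of GSK, without library B or C of COMBO, or with the replicate block (adjusted p up to 0.106).

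Whether the combination simply added up the changes of its parts was tested with the interaction term, which is the COMBO change less the GDC and GSK changes, all against DMSO and on the log2 scale. In it, 4 cytosolic and 5 mitochondrial genes were lower than the sum and 5 cytosolic genes were higher, against 16.5% and 4.86% of all genes. The split of 9 lower and 5 higher became 6 and 6 with DESeq2 or its size factors, 4 and 8 with a mean of at least 1 CPM as the filter, and 3 and 8 with no filter. The class medians were -0.07 and -0.18, with -0.06 over all genes, and the cytosolic median turned to 0.023 with no filter. CARS (0.47), GARS (0.45), SARS (0.40) and YARS (0.36) lay above the sum, and VARS (-0.50), CARS2 (-0.45) and LARS2 (-0.38) below it. These 7 were called under all 18 alternative analyses. As tested here their adjusted p ran from 1.18e-05 in GARS to 0.0008 in CARS2 (edgeR). CARS2, mitochondrial cysteinyl-tRNA synthetase, passed the test against DMSO with both agents together and not with either alone: its values were 50.1, 52.7 and 51.6 CPM in DMSO, 53.0, 49.1 and 51.5 CPM with GDC, 51.5, 49.4 and 44.2 CPM with GSK and 36.1, 34.2 and 35.2 CPM with COMBO. The COMBO libraries of CARS2 lay below all 9 others, and CARS2 was called lower under GSK in 5 of 19 alternative analyses. For cysteine the classes thus differed in sign, CARS above and CARS2 below the sum.

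**Figure D4:**
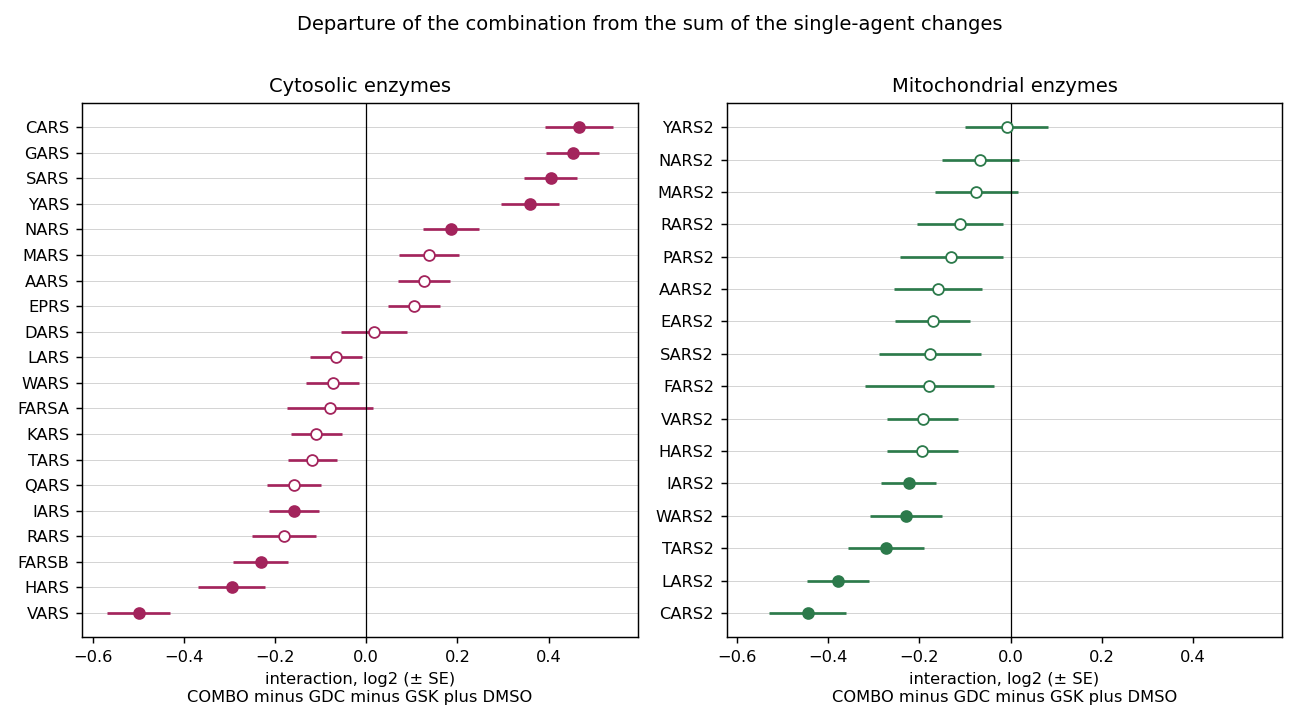
Interaction on the log2 scale (horizontal axis, with its standard error) for each cytosolic (purple) and mitochondrial (green) synthetase gene, from 12 libraries; filled circles have an adjusted p under 0.05. Cytosolic genes spread from -0.50 (VARS) to 0.47 (CARS), and all 16 mitochondrial values lie below 0, between -0.45 (CARS2) and -0.01 (YARS2, which is above 0 with DESeq2 or library totals; MARS2 and NARS2 reach 0.02 and 0.04 under other alternatives), with a median of -0.18 against -0.06 over all genes.

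Proteins that work with the synthetases were counted from lists written by hand. All 3 scaffolds of the multisynthetase complex were lower in COMBO. EEF1E1 fell most, from 11.9, 8.57 and 10.2 CPM in DMSO to 2.49, 2.84 and 2.47 CPM in COMBO (log2 fold change -1.93 ± 0.160 SE, adjusted p = 7.10e-10, edgeR). AIMP1 had 82.8, 80.3 and 76.7 CPM in DMSO and 44.8, 47.3 and 43.3 CPM in COMBO (-0.81 ± 0.0570 SE, adjusted p = 4.86e-11, edgeR). Of 11 other cytosolic partners of tRNA charging, 5 were lower and 4 higher in COMBO (median -0.08), shares near the 39.2% and 43.3% of all genes. XPOT, which exports tRNA from the nucleus, fell from 690, 644 and 656 CPM in DMSO to 253, 282 and 257 CPM (-1.33 ± 0.0445 SE, adjusted p = 3.66e-16, edgeR). SEPSECS, which makes selenocysteinyl-tRNA, rose from 17.6, 17.0 and 22.2 CPM to 38.1, 38.1 and 30.2 CPM (0.87 ± 0.0993 SE, adjusted p = 8.97e-08, edgeR).

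Of 6 mitochondrial partners, 5 were lower and 0 higher in COMBO (median -0.77), with all 6 values below 0, against 39.2% lower and 43.3% higher over all genes. QRSL1, a subunit of the amidotransferase that makes mitochondrial glutaminyl-tRNA from the product of EARS2, fell from 74.8, 77.6 and 78.9 CPM in DMSO to 35.7, 34.9 and 32.5 CPM (-1.17 ± 0.0530 SE, adjusted p = 4.28e-14, edgeR). TSFM, a mitochondrial elongation factor, fell from 76.2, 81.3 and 82.6 CPM to 40.8, 42.8 and 43.5 CPM (-0.92 ± 0.0608 SE, adjusted p = 1.79e-11, edgeR). The member that did not pass the test was PET112, the older symbol of GATB, at -0.10 ± 0.0719 SE (adjusted p = 0.191, edgeR).

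A list written around the sensing of uncharged tRNA and the ATF4 response was also counted. It held EIF2AK4, GCN1L1, IMPACT, EIF2AK3, ATF4, DDIT3, TRIB3, CEBPG, ASNS, CHAC1 and SESN2. Of 11 genes, 6 were lower and 2 higher under GDC, 8 lower and 2 higher under GSK, and 8 lower and 2 higher in COMBO, while in the interaction 7 were above and 2 below the sum of the single agents. Over all genes the shares lower and higher were 20.0% and 20.0% under GDC, 35.7% and 40.0% under GSK, 39.2% and 43.3% in COMBO, and 16.5% and 4.86% in the interaction. ATF4 itself had 488, 534 and 521 CPM in DMSO, 405, 399 and 412 CPM with GDC, 297, 296 and 281 CPM with GSK and 471, 445 and 473 CPM with COMBO. Its level was thus lowest with the EZH2 inhibitor alone and was nearer to DMSO when both were given (log2 fold change -0.82 ± 0.0439 SE in GSK and -0.15 ± 0.0429 SE in COMBO, adjusted p = 1.39e-12 and 0.00279, edgeR). Scaling by library totals turned the COMBO value of ATF4 to 0.056. CHAC1, a glutathione-degrading enzyme and ATF4 target, had 9.99, 11.1 and 11.6 CPM in DMSO, 2.56, 3.39 and 2.28 CPM with GDC, 1.54, 2.84 and 2.03 CPM with GSK and 4.06, 5.45 and 4.66 CPM with COMBO. TRIB3, a pseudokinase induced by ATF4, had 58.3, 64.2 and 60.3 CPM in DMSO, 37.8, 39.8 and 38.6 CPM with GDC, 25.8, 25.7 and 22.5 CPM with GSK and 25.7, 27.6 and 28.2 CPM with COMBO. DDIT3 and EIF2AK3, of the same list, were higher than in DMSO with GSK and COMBO. DDIT3 stood at 13.6 ± 0.907 CPM in DMSO, 19.3 ± 2.18 CPM with GSK and 27.5 ± 2.63 CPM with COMBO (SD, n = 3). EIF2AK3 stood at 41.6 ± 1.085, 85.1 ± 2.88 and 83.6 ± 3.28 CPM in these arms. The interaction was 1.01 ± 0.0615 SE for ATF4 (adjusted p = 8.15e-10), 3.11 ± 0.263 SE for CHAC1 (7.10e-08) and 0.80 ± 0.0940 SE for TRIB3 (4.98e-06, edgeR). Among the synthetases called in the interaction, 5 cytosolic genes (CARS, GARS, SARS, YARS and NARS) had the same sign. The other 4 cytosolic calls (VARS, HARS, FARSB and IARS) and all 5 mitochondrial calls had the opposite sign. A link of these changes to ATF4 was not tested. EIF2AK4, the sensor of uncharged tRNA, was higher under GDC (0.23 ± 0.0497 SE, adjusted p = 0.00111, edgeR) and lower in COMBO (-0.23 ± 0.0499 SE, adjusted p = 0.000239, edgeR).

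Of the 6 cytosolic genes with TGATGNAA near the start, CARS and NARS lay above the sum of the single agents in the interaction, IARS lay below it at -0.16, and AARS, MARS and TARS did not pass the test (0.13, 0.14 and -0.12). The call of IARS was lost in all 18 alternative analyses, that of NARS in 4, and AARS and MARS were called above the sum in 10 and 5. GARS and SARS lay above the sum without these letters in their windows, and no window was available here for YARS. Of the 3 mitochondrial genes with an E-box, MARS2 and EARS2 had the largest falls of their class in COMBO, and CARS2 fell by 0.55 (adjusted p = 3.52e-08, edgeR). The class median was -0.57. LARS2 (-1.08) and YARS2 (-1.00), with no E-box in their windows, fell nearly as far as EARS2 (-1.15). A link of either motif to the changes was not tested.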

How the data were processed

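PolyA RNA of C4.2B cells was sequenced by the study. The authors aligned reads to hg38 with STAR and made the deposited counts, whole reads per gene symbol, with HTSeq; versions, annotation and strand setting are not given in the sources used here. A deposited table that the authors normalized with DESeq2 was not used, and 0 columns of per-sample values mapped to no library. Lines that name no gene were left out.

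Counts of 12 libraries (3 per arm) entered 1 quasi-likelihood fit of edgeR 4.0.16 (R 4.3.3; glmQLFit, glmQLFTest) with TMM scaling, filterByExpr (14189 genes) and 1 coefficient per arm. Tests were two-sided, with Benjamini-Hochberg adjustment over all genes tested and a threshold of 0.05. Changes are log2 fold changes, computed from the deposited counts. Ratios of 2 genes used log2 CPM with a prior count of 2. The common biological coefficient of variation was 0.0499. The floor of 3 counts covers counting error only. Counts of replicates in 1 arm varied beyond sampling noise (chi-square per degree of freedom 1.74 to 6.05). The test was run on simulated counts first.

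Genes are named with the symbols of the count files. Coordinates and lengths come from GENCODE 44, where 36 of 36 genes matched, 13 overlapped another counted gene (among them MARS with DDIT3, and HARS with HARS2) and 11 had named pseudogenes, so their counts are less certain. Promoter windows of RefSeq matched 30 of 36 genes.

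The members, gene lists and motifs were chosen with earlier results of these data known. Values by library are given for genes chosen by rule. The rule took the 4 genes per class with the largest change in COMBO, the 6 largest interactions and members called in no comparison with DMSO. It also took members called against their class and the 2 amino acids with the widest and the 1 with the narrowest split. Further genes by rule were 2 per partner list, ATF4 and EIF2AK4, the last given by its changes only. For RARS2, SARS2, WARS, WARS2 and the scaffolds and partners, the libraries printed are those of DMSO and COMBO. QARS, TARS, PET112 and the other genes given values were added after these were seen. Alternatives were DESeq2 1.42.0, its size factors, library totals, other filters, a replicate block, fits of only the arms compared, leaving out each library, a prior count of 0.25 and a longer motif.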

Additional observations from a re-analysis of the deposited data

Results flagged for a closer look

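For 14 synthetases the effect of one inhibitor differed by whether the other was present, judged by the interaction in edgeR with an adjusted p under 0.05. On the log2 scale the combination lay above the sum of the single agents for CARS (0.47), GARS (0.45), SARS (0.40), YARS (0.36) and NARS (0.19), all cytosolic. It lay below the sum for the cytosolic genes VARS (-0.50), HARS (-0.30), FARSB (-0.23) and IARS (-0.16), and for the mitochondrial genes CARS2 (-0.45), LARS2 (-0.38), TARS2 (-0.27), WARS2 (-0.23) and IARS2 (-0.22). The calls of IARS and WARS2 were lost in 18 and 17 of 18 alternative analyses, those of TARS2, FARSB, IARS2, HARS and NARS in 12, 11, 11, 7 and 4. The other 7 calls were kept in all 18. Over all genes tested, 16.5% lay below and 4.86% above the sum.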

How the results depend on the processing

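Of 3390 values of named genes under an alternative analysis, 154 lost and 35 gained a call, and 7 turned sign with a call before or after. Another 121 turned sign with no call on either side. The 7, all with library totals, were RARS2 (0.14, adjusted p = 0.0409), SARS2 (0.20, 0.0219), HARS2 (0.19, 0.00450) and ATF4 (0.056, 0.243) in COMBO against DMSO, and CARS (0.018, 0.761), SARS (0.038, 0.404) and RARS2 (0.021, 0.771) in COMBO against GDC. Numbers of genes called lower in the pairwise comparisons stayed within 1.5 times.

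Class medians (cytosolic, then mitochondrial where both moved by more than the spread) changed as follows. With DESeq2 the cytosolic median was -0.32 for GDC, -0.65 for GSK and -0.87 for COMBO, and with its size factors -0.32 for GDC. With library totals the medians were -0.45 and -0.25 for GSK, -0.62 and -0.36 for COMBO, -0.46 and -0.41 for COMBO against GDC, and -0.14 and -0.11 for COMBO against GSK. With no filter they were -0.34 and -0.070 for GDC, -0.69 and -0.49 for GSK, -0.88 and -0.62 for COMBO, and 0.023 and -0.078 for the interaction. With a mean of at least 1 CPM they were -0.56 and -0.52 for COMBO against GDC, and -0.0073 for the cytosolic interaction.

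The number called higher under GSK was 0 with DESeq2, its size factors, no filter, the compared arms only and the replicate block. Under GDC it was 0 with no filter and 2 with library totals, which also gave 3 in COMBO. In the interaction 3 genes were lower and 8 higher with no filter, and 4 and 8 with a mean of at least 1 CPM. With the replicate block, 1 gene was higher in COMBO against GSK. Replicate letters were not treated as pairs. Deviations of same-letter libraries correlated above 0.1 in 2 of 18 pairs (-0.0839 to 0.188), both between GDC and COMBO. Such correlations over all genes cannot exclude a shared batch, and the replicate block is given as an alternative only.

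Leaving out 1 library at a time gave 0 to 1 higher genes under GDC (0 without DMSO C), 0 to 1 under GSK, 0 to 3 in COMBO against GSK, and 3 to 9 lower and 4 to 8 higher in the interaction (3 lower without DMSO A, DMSO C, GDC A, GDC B or COMBO A, and 8 higher without COMBO A). Cytosolic medians ranged from -0.32 to -0.29 for GDC, -0.65 to -0.60 for GSK, -0.65 to -0.57 for COMBO against GDC, -0.21 to -0.15 for COMBO against GSK and -0.062 to 0.042 for the interaction. Mitochondrial medians ranged from -0.057 to -0.013 for GDC, -0.48 to -0.35 for GSK and -0.21 to -0.081 for the interaction. The cause of these changes was not tested. A prior count of 0.25 left the ratio changes at -0.26, -0.29 and -0.40. The lowest synthetase count in a library was 129, above the floor of 3 counts, but a change is less easily called in genes with lower counts.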
